A study of Bos taurus with 10 samples.

Results

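Small leucine-rich proteoglycans are secreted matrix proteins built around a curved stack of leucine-rich repeats, and most of them sit on collagen fibrils, where they set how thick fibrils grow and how they are spaced. Class I holds biglycan (BGN), decorin (DCN) and asporin (ASPN), of which the former pair carry chondroitin or dermatan sulfate chains. Class II holds lumican (LUM), fibromodulin (FMOD), keratocan (KERA), osteomodulin (OMD) and PRELP, most of which can carry keratan sulfate, and class III holds osteoglycin (OGN, also called mimecan). Tenomodulin (TNMD) is not a proteoglycan but a membrane glycoprotein with a BRICHOS domain, best known as a marker of tendon cells and also described in human fat.

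The genes were chosen by name from the deposited table, with earlier results for the contrast between the depots in view. The list had 10 names, of which 9 matched a row among the 12674 genes of the table, 8 proteoglycans and TNMD, and all 9 passed the filter on low counts. OMD was not analysed here. The contrast between the depots entered the choice of genes, so the differences between the depots are given for them as a description and no p-value is attached to them.

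RNA was sequenced from intramuscular fat (the marbling between muscle fibres) and subcutaneous fat (the fat under the skin) of 5 adult female Angus-cross cattle, with 5 libraries in each depot. No treatment or transgene was involved, and each heifer gave a library of either depot. The counts over listed genes ranged from 9392739 to 14836808 in intramuscular and from 13776094 to 17685678 in subcutaneous libraries. Levels are CPM, a gene's counts scaled to a fixed library total, on library sizes scaled by the trimmed mean of M-values (TMM), and replicates 1 to 5 are named in that order. In bulk tissue, fewer cells of a type and less RNA per cell cannot be told apart.

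Asporin, fibromodulin, biglycan and tenomodulin lay higher in intramuscular fat in every library, while the libraries of the depots overlapped for decorin, lumican, osteoglycin, PRELP and keratocan. Of the 9 genes, 4 passed an adjusted p of 0.05 as higher (ASPN, FMOD, BGN and TNMD) and 0 as lower in the edgeR quasi-likelihood fit across all 12521 genes tested. In that fit 6.75% of all genes were higher and 5.49% lower. The median log2 fold change was 0.93 over the 9 genes and -0.04 over all genes tested. The depots did not overlap for the same 4 genes, with intramuscular libraries on top in 7.85% of all genes and at the bottom in 5.04%. The contrast took part in the choice of the genes, so nothing is read from these counts. Of the 9 genes, 5 have in the authors' deposited table an adjusted p under 0.05 and a positive fold change (these 4 and PRELP), as do 10.8% of its genes, with 9.24% negative. The category column of the authors' deposited table lists 4 of them as upregulated and BGN as non-significant.

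**Figure D1:**
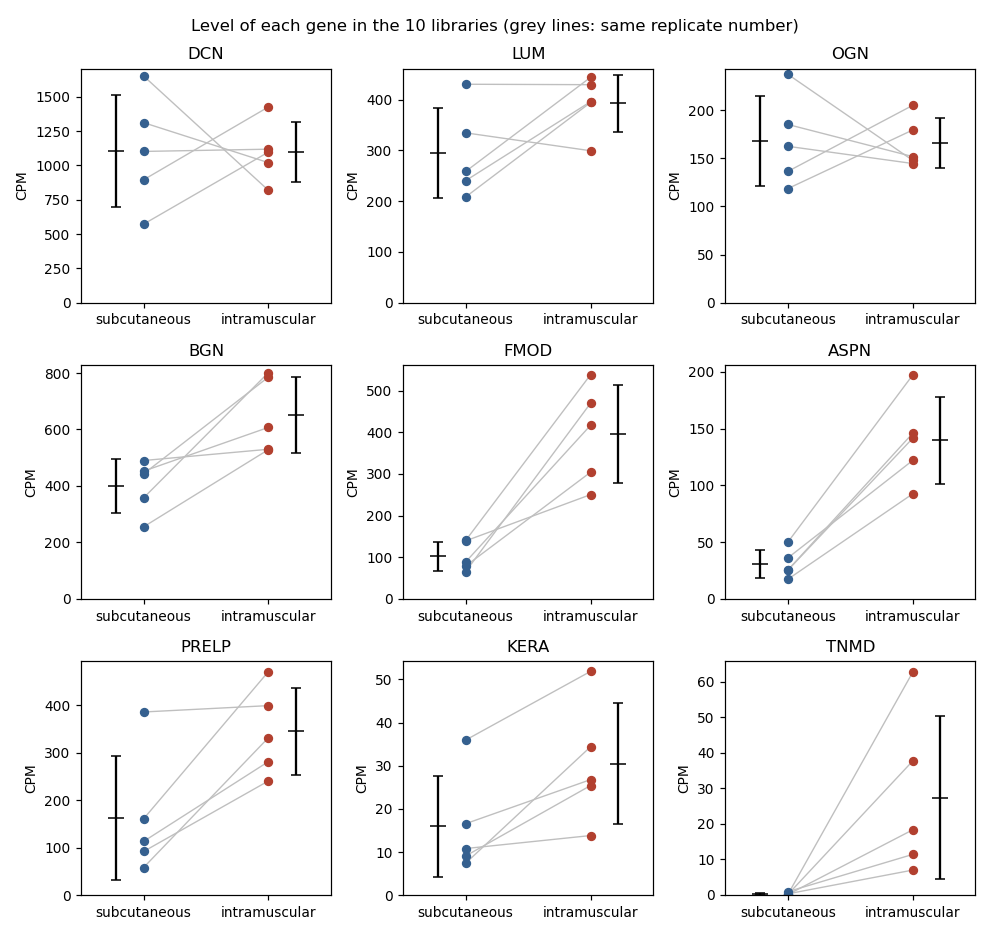
Level of the 9 genes in CPM (vertical axes, 1 panel per gene, each with its own scale) in the subcutaneous (blue) and intramuscular (red) libraries. Grey lines join libraries with the same replicate number and black bars give mean ± SD (n = 5); the depots are separate for BGN, FMOD, ASPN and TNMD and overlap for the other genes.

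Asporin had the widest gap between the depots among the proteoglycans. ASPN, which binds collagen and transforming growth factor beta and whose protein core carries a run of aspartate residues, measured 197, 122, 146, 141 and 92.5 CPM in intramuscular replicates 1 to 5. In subcutaneous replicates 1 to 5 it measured 49.95, 36.1, 25.3, 25.3 and 17.3 CPM. The lowest intramuscular library was 1.85-fold above the highest subcutaneous one. The means were 140 ± 38.3 and 30.8 ± 12.6 CPM (SD, n = 5), a log2 fold change of 2.18 ± 0.28 (SE), and the fold within same-numbered pairs ran from 3.38 to 5.76. With any 1 library left out the log2 fold change lay between 2.03 and 2.43. ASPN (ENSBTAG00000011847) spans 84067290 to 84092633 on chromosome 8, minus strand, in the coordinates of the deposited table, whose build is not given in the sources used here.

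The other class I genes, decorin and biglycan, had smaller differences. DCN, a collagen-binding proteoglycan that also holds growth factors in the matrix, measured 818, 1427, 1098, 1020.2 and 1119 CPM in intramuscular libraries. The subcutaneous values were 1652, 895, 572, 1312 and 1102 CPM. The subcutaneous libraries therefore enclosed all the intramuscular ones, with means of 1096 ± 219.5 and 1107 ± 409 CPM and a log2 fold change of -0.01 ± 0.26 (SE). Of the 5 pairs, 3 were higher in intramuscular fat.

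BGN, which also acts as a signal through Toll-like receptors when it is shed, measured 786, 607, 802, 529 and 530.0 CPM in intramuscular and 443, 452, 358, 255 and 490.1 CPM in subcutaneous fat. The depots were apart, but the lowest intramuscular library exceeded the highest subcutaneous one by a factor of 1.08 only. The means were 651 ± 134 and 399.7 ± 94.2 CPM, a log2 fold change of 0.70 ± 0.21 (SE). Of the 10 fits that left out 1 library, the one without subcutaneous replicate 5 alone still placed BGN past the threshold, although its fold change stayed between 0.58 and 0.79.

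Fibromodulin was the class II gene with the largest difference. FMOD, which binds collagen, guides its crosslinking and is abundant in tendon and cartilage, measured 538, 417, 469.9, 304 and 250.4 CPM in intramuscular libraries. The subcutaneous values were 140.4, 88.8, 65.7, 79.0 and 139 CPM. The lowest intramuscular library was 1.78-fold above the highest subcutaneous one. The means were 396 ± 118 and 103 ± 34.95 CPM, a log2 fold change of 1.95 ± 0.27 (SE), and the pairs ranged from 1.80-fold (replicate 5) to 7.15-fold (replicate 3). FMOD (ENSBTAG00000014912) spans 1122157 to 1132658 on chromosome 16, minus strand.

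Lumican, which binds the same region of collagen as FMOD, showed a much smaller difference. LUM measured 299, 396, 394, 429 and 444 CPM in intramuscular and 334, 240.4, 208, 430.2 and 258 CPM in subcutaneous fat. Only intramuscular replicate 5 lay above all subcutaneous libraries, and 3 subcutaneous libraries lay below all intramuscular ones. The log2 fold change was 0.42 ± 0.21 (SE). It was higher in 3 of 5 pairs, and LUM was past the threshold in none of the 16 alternative fits.

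PRELP and keratocan lay in between, and subcutaneous replicate 1 was far above the other subcutaneous libraries for both. PRELP, which links collagen to heparan sulfate of basement membranes, measured 399, 471, 332, 240.4 and 281 CPM in intramuscular and 385, 161, 58.1, 91.9 and 113 CPM in subcutaneous fat. Subcutaneous replicate 1 alone reached into the intramuscular range. The log2 fold change was 1.09 ± 0.42 (SE), and 1.70 without subcutaneous replicate 1, a fit in which PRELP passed the threshold. KERA, a keratan sulfate proteoglycan best known from the cornea, measured 51.9, 25.4, 13.8, 26.8 and 34.4 CPM in intramuscular and 35.9, 9.09, 10.8, 16.6 and 7.42 CPM in subcutaneous fat. Its log2 fold change was 0.93 ± 0.44 (SE), and 1.47 without subcutaneous replicate 1, where it too passed although the depots still overlapped. For PRELP and for KERA this was the only 1 of the 10 fits leaving out 1 library in which the gene passed. Both genes were higher in intramuscular fat in 5 of 5 pairs, as were 6 of the 9 genes and 15.7% of all genes tested. With the replicate number as a block, PRELP and KERA joined the 4 genes past the threshold, at log2 fold changes of 1.37 and 1.04. In that fit 8.09% of all genes were higher and 6.96% lower.

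Osteoglycin, the class III gene, resembled decorin. OGN measured 148, 179, 205, 152 and 145 CPM in intramuscular and 237, 119, 136, 185 and 162 CPM in subcutaneous fat. The subcutaneous libraries again enclosed all the intramuscular ones, and the log2 fold change was -0.02 ± 0.20 (SE).

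Tenomodulin was close to undetected in subcutaneous fat. TNMD (ENSBTAG00000021059, chromosome X, 49576205 to 49597762, plus strand) had 402, 154, 857, 269 and 102 raw counts in intramuscular replicates 1 to 5, or 37.6, 11.3, 62.6, 18.2 and 6.89 CPM. In subcutaneous replicates 1 to 5 it had 0, 11, 0, 0 and 3 counts. Where no read was counted, 3 counts would correspond to 0.194, 0.186 and 0.176 CPM in subcutaneous replicates 1, 3 and 4, the limit that a count of 0 allows for counting error. The intramuscular mean of 27.3 ± 23.0 CPM stood 150.3-fold above the pooled subcutaneous level of 14 counts (95% exact Poisson interval of those counts, 89.6 to 275, counting error only). Without subcutaneous replicate 2, which held 11 of the 14 counts, the ratio rested on 3 counts and was 577 (197 to 2798). Among the intramuscular libraries TNMD varied 9.09-fold, against at most 3.75-fold for the proteoglycans.

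**Figure D2:**
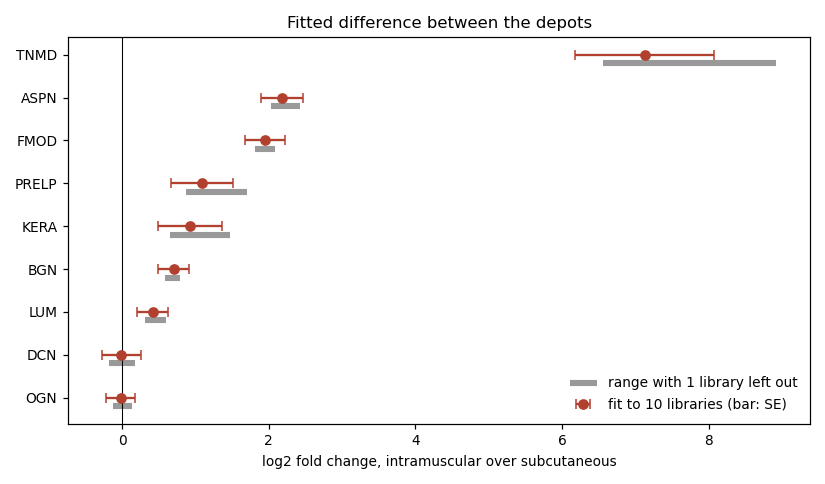
Fitted log2 fold change of intramuscular over subcutaneous fat (horizontal axis) for the 9 genes, with red points and bars for the fit to 10 libraries ± SE and grey bars for the range when any 1 library was left out. DCN and OGN sit at 0, ASPN and FMOD near 2, and TNMD at 7.13 with the widest range, 6.56 to 8.92.

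Divided by the exon length in the deposited table, so that genes can be set side by side, decorin was the most abundant transcript of the set in both depots. Its level was 512 ± 103 CPM per kb in intramuscular and 517 ± 191 CPM per kb in subcutaneous fat (SD, n = 5). The order in intramuscular fat went on with BGN (288 CPM per kb), LUM (214), FMOD (126), PRELP (90.4), OGN (68.1), ASPN (59.2), TNMD (23.3) and KERA (14.4). Only DCN and BGN, among neighbours in that order, had ranges that did not overlap. In subcutaneous fat the order was DCN, BGN (177 CPM per kb), LUM (160.4), OGN (69.0), PRELP (42.5), FMOD (32.6), ASPN (13.0), KERA (7.56) and TNMD (0.172). There the ranges were apart between DCN and BGN, between LUM and OGN and between KERA and TNMD. FMOD thus stood above OGN in one depot and below it in the other.

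The make-up of the proteoglycan transcripts shifted with these levels. FMOD took 9.11 ± 2.48% of the summed CPM per kb of the 8 proteoglycans in intramuscular and 3.22 ± 0.728% in subcutaneous fat, and ASPN took 4.34 ± 1.27% and 1.31 ± 0.444%. DCN took 37.3 ± 5.77% and 49.6 ± 5.68%. The sum itself was 1372 ± 132 CPM per kb in intramuscular and 1019 ± 288 CPM per kb in subcutaneous fat, and subcutaneous replicate 1, at 1431 CPM per kb, lay among the intramuscular libraries. BGN and LUM held similar shares in both depots (21.0% and 18.4% for BGN, 15.7% and 16.0% for LUM).

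**Figure D3:**
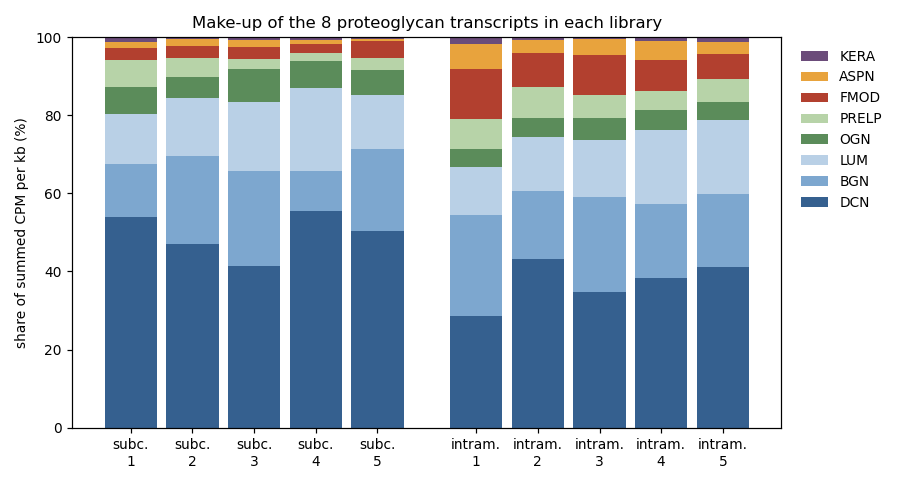
Share of each of the 8 proteoglycans in their summed CPM per kb (vertical axis, %), 1 bar per library, subcutaneous replicates 1 to 5 on the left and intramuscular replicates on the right. The segments of FMOD (red) and ASPN (orange) are larger in all 5 intramuscular bars, and the DCN segment (dark blue) averages 37.3% there against 49.6%.

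Ratios taken inside a library do not depend on how libraries were scaled. Per length, FMOD stood at 1.05, 0.614, 0.694, 0.413 and 0.329 of LUM in intramuscular replicates 1 to 5 and at 0.245, 0.215, 0.184, 0.107 and 0.314 in subcutaneous ones, so the depots were separate by a small margin. ASPN stood at 0.659 to 1.37 of OGN in intramuscular and 0.110 to 0.314 in subcutaneous fat. BGN stood at 0.404 to 0.910 of DCN in intramuscular and 0.184 to 0.593 in subcutaneous fat, which overlap.

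Of the 9 genes, 7 lie in clusters, and differences between neighbours were not tested. On chromosome 8 ASPN and OGN are 31910 bases apart on the same strand, and only ASPN was past the threshold. In the RefSeq annotation of the assembly ARS-UCD2.0, OMD lies between them and ECM2 follows ASPN. ECM2, a leucine-rich repeat matrix gene 15849 bases from ASPN in the deposited table, measured 227 ± 33.1 and 219 ± 100.5 CPM. CENPP overlaps both ASPN and OGN on the opposite strand. At means of 1.66 and 1.17 CPM it was a small fraction of either gene, and the strand setting of the counting is not given in the sources used here.

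On chromosome 16 FMOD and PRELP are 105957 bases apart on opposite strands. OPTC (opticin, a class III relative known from the vitreous of the eye) lies 4334 bases from PRELP and was higher in intramuscular fat, at 4.99 ± 1.67 against 0.808 ± 0.536 CPM (edgeR adjusted p = 0.00667). On chromosome 5 KERA, LUM and DCN follow each other on the same strand with gaps of 34462 and 35848 bases, at log2 fold changes of 0.93, 0.42 and -0.01. Within 500000 bases of the 9 genes, 46 other genes were tested, of which 6 were higher and 2 lower, 17.4% against 12.2% of all genes called in either direction.

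By library, the genes fell into different orders within a depot. Among subcutaneous libraries, replicate 1 was the highest for 6 of the 9 genes (DCN, ASPN, FMOD, PRELP, KERA and OGN) and replicate 3 the lowest for 4 (DCN, LUM, FMOD and PRELP). Among intramuscular libraries, replicate 1 was highest for ASPN, FMOD and KERA but lowest for DCN and LUM. Replicate 3 was highest for BGN, OGN and TNMD, and replicate 5 was lowest for ASPN, FMOD, OGN and TNMD.

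Striated muscle transcripts were higher in intramuscular fat too. The 24 sarcomere genes listed as muscle markers were not analysed here. The 12 other striated muscle genes with values, of 42 listed, summed to 455 to 2314 CPM in intramuscular and 54.1 to 90.3 CPM in subcutaneous libraries, and 10 were higher and 0 lower. Among intramuscular libraries this sum was highest in replicate 1 and next in replicate 3, which were also the highest pair for ASPN, FMOD, BGN and TNMD. In subcutaneous replicates 1 to 5 the muscle sum was 58.6, 75.9, 90.3, 78.5 and 54.1 CPM. Most of it came from KLHL31, CHRNA1, ASB11 and SGCA, at subcutaneous means of 29.0, 14.9, 14.6 and 8.43 CPM. NMRK2, LRRC30, CACNG6 and ANO5 had no counts there. The order of the subcutaneous libraries in this sum therefore rests on few of the genes, and nothing is read from it. Unlike the muscle sum, the summed level of 16 mature adipocyte genes was lowest in intramuscular replicate 1, at 7807 CPM. It was highest in intramuscular replicate 5, at 27388 CPM, against 26551 to 41361 CPM in subcutaneous fat. Without intramuscular replicates 1 and 3 the ratio of mean CPM was 3.85 for ASPN (4.54 with all libraries), 3.15 for FMOD (3.86), 1.39 for BGN (1.63) and 60.1 for TNMD (135), and for each of the 4 genes the remaining intramuscular libraries still lay above all the subcutaneous ones. In that fit the log2 fold change of BGN was 0.47, short of the threshold, while ASPN, FMOD and TNMD remained past it. Intramuscular replicates 2, 4 and 5 still averaged 565 CPM for the muscle sum, against a mean of 71.5 CPM in subcutaneous fat. Each of them lay above all subcutaneous libraries for that sum, so leaving out replicates 1 and 3 does not remove muscle transcripts.

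**Figure D4:**
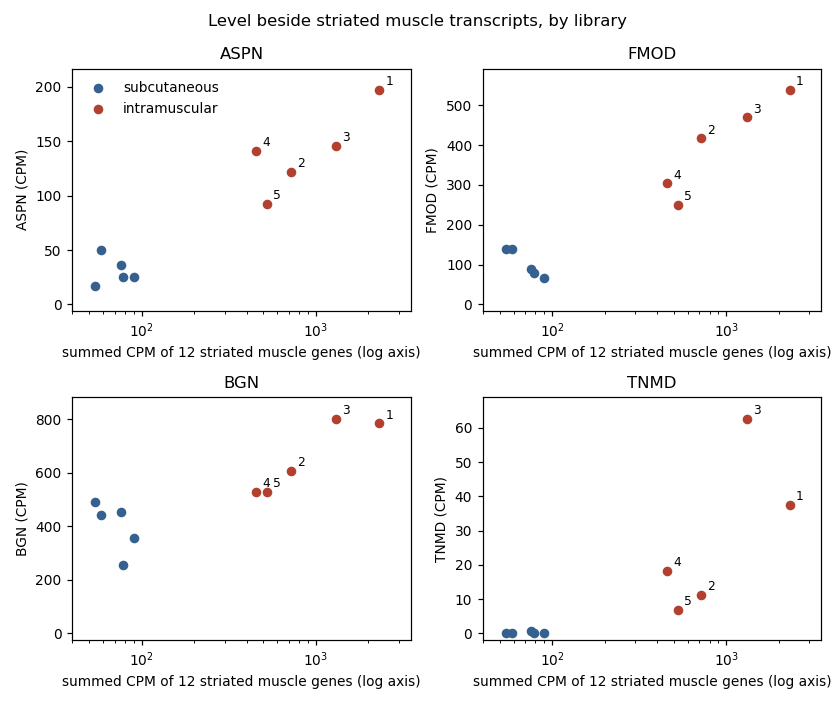
Level of ASPN, FMOD, BGN and TNMD (vertical axes, CPM) against the summed CPM of 12 striated muscle genes (horizontal log axes) in each library, subcutaneous in blue and intramuscular in red with replicate numbers. Intramuscular replicates 1 and 3 have the highest muscle sums (2314 and 1313 CPM) and the highest levels of all 4 genes.

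Some tendon and dense connective tissue markers were also higher. Of 18 listed genes 11 had values, SCX, MKX and COMP were among those not analysed here, and 4 of the 11 were higher and 0 lower (median log2 fold change 0.86). Their summed level was 1762 to 3357 CPM in intramuscular and 287 to 1402 CPM in subcutaneous libraries. Tenascin C (TNC, 554 ± 127 against 24.5 ± 18.9 CPM), thrombospondin 4 (THBS4, 643 ± 366 against 63.2 ± 86.3 CPM) and ANGPTL7 (10.9 ± 6.26 against 0.0248 ± 0.0555 CPM) were among them. ANGPTL7 had reads in a single subcutaneous library. The largest single part of the summed level in both depots was EGR1, which was not called (edgeR adjusted p = 0.477). EGR1 measured 883 ± 748 and 557 ± 303 CPM and ranged from 200 to 2109 CPM among intramuscular libraries. The sum was lowest in intramuscular replicate 1, but this order was not separated from that of EGR1. The part that muscle or tendon tissue had in the proteoglycan and TNMD levels was not tested.

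Of the other marker lists, fibroblast and progenitor genes had 1 higher and 4 lower of 16 tested, mature adipocyte genes 0 and 2 of 15, and nerve genes 7 and 1 of 13. Mural cell genes had 3 and 0 of 6, endothelial genes 0 and 4 of 13, macrophage genes 0 and 4 of 14, cartilage and bone genes 0 and 0 of 6 and keratinocyte genes 1 and 1 of 2. The depots are thus mixtures that differed in several cell markers. Adipocyte genes were abundant in both, including FABP4 (2496 ± 743 and 5952 ± 1874 CPM), which was itself called lower (edgeR adjusted p = 0.0161).

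The genes that make, modify, bind or cleave these proteins were taken from 9 lists written by role. Values were tested for 137 of them, with 16 called higher and 5 lower, 15.3% against 12.2% of all genes, and their median log2 fold change was -0.12 against -0.04. With the replicate number as a block 20 were higher and 9 lower. Of the 21 calls without the block, 11 held in all 10 fits that left out 1 library, and 5 held without intramuscular replicates 1 and 3.

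Among other leucine-rich repeat matrix genes, 2 of 6 were higher and 0 lower. Besides OPTC this was chondroadherin (CHAD), a cartilage and tendon protein, at 15.2 ± 4.97 against 2.41 ± 1.69 CPM (log2 fold change 2.65 ± 0.64, edgeR adjusted p = 0.0195, or 0.0523 without intramuscular replicate 3). Podocan (PODN) measured 491 ± 127 and 302 ± 143 CPM (edgeR adjusted p = 0.120), and tsukushi (TSKU) 77.7 ± 20.8 and 64.9 ± 26.4 CPM (0.537). PODNL1 measured 5.56 ± 2.52 and 5.79 ± 1.72 CPM. Of the 3 genes that share the BRICHOS domain with TNMD and had values, its closest relative CNMD (chondromodulin) measured 1.41 ± 0.397 and 1.17 ± 0.661 CPM (edgeR adjusted p = 0.756). ITM2B, a broadly expressed membrane protein, was lower, at 2114 ± 656 against 4160 ± 485 CPM (edgeR adjusted p = 0.0223, short of the threshold without intramuscular or subcutaneous replicate 3, at up to 0.0619). ITM2C measured 62.1 ± 5.57 and 62.2 ± 14.1 CPM.

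Counts for the enzymes that build and sulfate the sugar chains are given beside 6.75% of all genes higher and 5.49% lower. With lists this short, nothing is read from these counts. In the list for the linker and for chondroitin or dermatan sulfate, 0 of 24 were higher and 1 lower, the polymerizing factor CHPF2 (26.3 ± 4.17 against 44.7 ± 7.26 CPM, edgeR adjusted p = 0.0130). With the replicate number as a block, 2 genes of that list were higher, the xylose kinase FAM20B (11.5 ± 3.45 against 5.17 ± 3.29 CPM, edgeR adjusted p = 0.0469 with the block and 0.0733 without) and the chain initiating enzyme CSGALNACT1 (37.8 ± 9.24 against 24.5 ± 10.4 CPM, 0.0289 and 0.158). In the list for keratan sulfate and tyrosine sulfation, 0 of 14 were higher and 2 lower. These were the keratan sulfotransferase CHST1 (25.5 ± 4.30 against 59.2 ± 6.56 CPM) and the tyrosine sulfotransferase TPST2 (69.4 ± 8.34 against 106 ± 21.99 CPM), with edgeR adjusted p of 0.000544 and 0.0347. Of the fits that left out 1 library, TPST2 kept its call only in those without intramuscular replicate 5 or subcutaneous replicate 2 or 4. With the block 3 genes of this list were lower, the sulfotransferase CHST2 being added (39.9 ± 14.7 against 65.98 ± 15.2 CPM, edgeR adjusted p = 0.0250 with the block and 0.0690 without). B3GNT7, an enzyme of keratan chain extension, measured 1.59 ± 0.793 and 0.443 ± 0.242 CPM (edgeR adjusted p = 0.0609). FAM20B, CSGALNACT1, CHST2 and B3GNT7 were named after their values were seen.

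Among fibrillar collagens and fibril-associated partners, 4 of 18 were higher and 0 lower, with a list median of -0.17. The higher ones were COL11A1 (6.90 ± 4.68 against 0.330 ± 0.313 CPM), a minor fibril collagen, COL12A1 (61.5 ± 16.7 against 18.6 ± 9.61 CPM), which coats fibrils, dermatopontin (DPT, 189 ± 16.6 against 85.1 ± 25.7 CPM), which binds decorin, and MFAP4, named after its values were seen. MFAP4 (edgeR adjusted p = 0.0262) lost its call without intramuscular replicate 2 or 3 or subcutaneous replicate 3, 4 or 5, at up to 0.0662. The main fibril collagens COL1A1 (2694 ± 482 and 4652 ± 2207 CPM) and COL3A1 (5664 ± 584 and 7187 ± 1710 CPM), also named after their values were seen, had edgeR adjusted p of 0.126 and 0.318. Of 19 collagen processing and crosslinking genes, 1 was higher and 0 lower, the prolyl hydroxylase subunit P4HA3 (29.2 ± 8.68 against 2.54 ± 1.51 CPM, edgeR adjusted p = 0.000167).

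Of 24 growth factors and receptors reported to bind these proteoglycans, 6 were higher and 0 lower. TGFB3, a transforming growth factor beta ligand, measured 151 ± 16.5 against 19.7 ± 10.2 CPM (log2 fold change 2.93 ± 0.30, edgeR adjusted p = 8.69e-05), while TGFB1, named after its values were seen, measured 64.7 ± 14.2 and 64.2 ± 18.3 CPM (0.976). The integrin subunit ITGB3 measured 41.3 ± 3.79 against 18.2 ± 7.29 CPM (edgeR adjusted p = 0.0160). Myostatin (MSTN), a muscle growth inhibitor that decorin binds, measured 1.74 ± 2.01 against 0.0645 ± 0.144 CPM and lost its call without intramuscular replicate 1 (edgeR adjusted p = 0.0613). Of 10 proteases, 2 were higher and 0 lower, ADAMTS1 (397 ± 104 against 103 ± 73.0 CPM, edgeR adjusted p = 0.0210) and ADAMTS9 (31.4 ± 6.31 against 14.6 ± 6.64 CPM, 0.0279). With 1 library left out, ADAMTS9 kept its call only in the fits without intramuscular replicate 1 or subcutaneous replicate 1 or 4. Of 19 large proteoglycan and hyaluronan genes, 1 was higher and 1 lower, SPOCK2 (33.1 ± 19.4 against 9.36 ± 3.20 CPM, edgeR adjusted p = 0.00709) and the hyaluronan synthase HAS2 (6.29 ± 2.58 against 13.5 ± 4.10 CPM, 0.0357). With 1 library left out, HAS2 kept its call only in the fits without intramuscular replicate 2 or subcutaneous replicate 4 or 5.

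**Figure D5:**
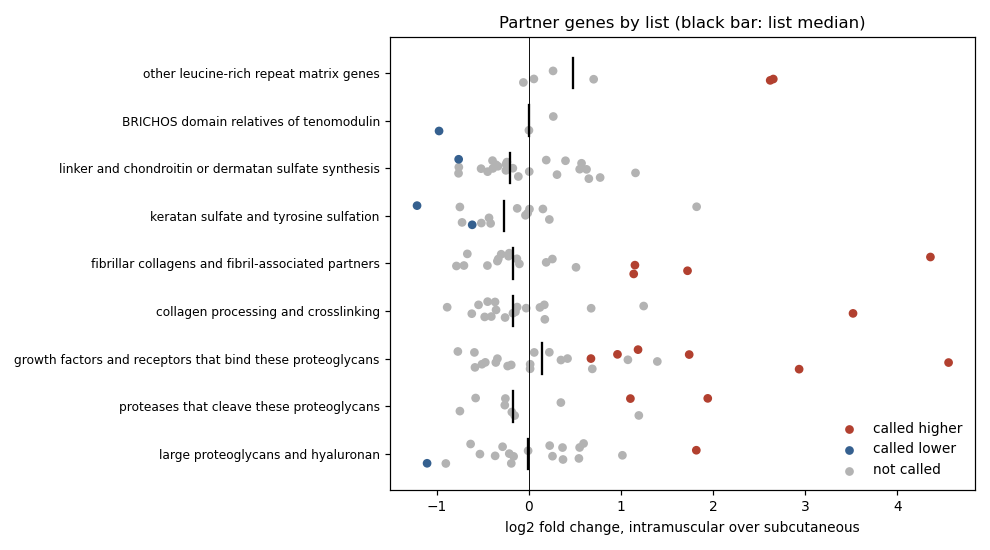
Log2 fold change of intramuscular over subcutaneous fat (horizontal axis) for each tested gene of the 9 partner lists (rows), red where called higher, blue where called lower and grey where not called, with a black bar at the list median. The 16 higher genes spread over 6 lists, and the 2 lists of sugar chain enzymes hold 0 higher and 3 lower genes. In this fit, which has no replicate block, 6.75% of all genes were higher and 5.49% lower.

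The genes whose pattern over the 10 libraries was most like each of these were found by the root mean square difference of log2 CPM, centred on each gene's mean, over 12276 other genes. For ASPN they were P3H2, a collagen prolyl 3-hydroxylase, ITIH4 and TRPC4 (differences of 0.176, 0.222 and 0.253). For FMOD they were PDE4B, RCAN2 and B4GALT6 (0.327, 0.333 and 0.336). ASPN and FMOD were each other's closest gene within the set (0.495), at places 72 and 64 among all genes compared. For DCN they were SERPINF1, C7 and EFHD2 (0.125, 0.170 and 0.182), and its closest gene within the set was OGN (0.275). For PRELP they were IGF1R, MFAP4 and SERPINB9 (0.308, 0.326 and 0.353). For BGN they were PPFIBP2, EZH2 and DELE1 (0.177, 0.203 and 0.203), and for LUM RBMX, PDZD8 and DHX15 (0.102, 0.121 and 0.140). For OGN they were KLHL36, OGFRL1 and UIMC1 (0.157, 0.180 and 0.184), and for KERA GPR162, CYS1 and PDE10A (0.422, 0.430 and 0.457). The closest gene within the set came at place 52 for DCN, 159 for PRELP, 217 for OGN and 259 for TNMD. It came at place 657 for LUM, 762 for KERA and 3228 for BGN. For TNMD, MAPK4, HHATL and HSPB7 came nearest, at 0.825, 0.830 and 0.839. The measure is not scaled to a gene's own range, so these differences cannot be set against those of the other genes. HSPB7 is among the 12 striated muscle genes summed above. The measure runs over both depots, so genes with a similar difference between the depots come out alike. Likeness within a depot was not tested.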

How the data were processed

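Trimmomatic 0.39, STAR 2.7.11a, DESeq2 1.42.0 and featureCounts 2.0.2 appear in the submitters' processing notes. Neither genome build nor strand setting is given in the sources used here. The authors deposited raw counts per gene for 10 libraries. The authors' table also holds a mean raw count per depot, a base mean signal (counts over size factors), a Wald score, a log2 fold change and a p-value with its adjusted value, per the file headers. Columns were matched to samples by the library names in the labels.

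Counts were tested with edgeR 4.0.16 (quasi-likelihood, two-sided, TMM, filterByExpr by depot, no block, Benjamini-Hochberg at 0.05) under R 4.3.3. The filter left 12521 genes and took out 153. The SE is the log2 fold change over the square root of F. Log2 CPM used a prior count of 2. The step was tested on simulated data. Alternatives were DESeq2 size factors, no filter, DESeq2, limma voom (limma 3.58.1), the replicate number as a block, each library left out, and intramuscular replicates 1 and 3 left out.

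Since the design text puts both depots in the same heifers, libraries sharing a replicate number were treated as a pair. The pairing entered the folds within pairs and the fit with the block, but not the main fit. Across genes, the paired libraries' departures from the mean of their depot had correlations of 0.102, 0.181, 0.176, 0.161 and 0.237. For all 10 libraries the best match in the other depot was the library of the same number.

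Genes and lists were chosen with earlier results of these data known. Named were all genes of the set, up to 3 called genes of smallest p per direction in each partner list, all close relatives with values, the most abundant and the called markers, and the 3 most alike genes with at least 1 CPM. This rule names 59 genes besides the set and the genes most like it, and the text gives part of them.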

Additional observations from a re-analysis of the deposited data

Results flagged for a closer look

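Among the 18 sets of 5 libraries (9 genes in 2 depots), 1 had a library far from the other four by Dixon's criterion at 95%. TNMD in subcutaneous replicate 2 measured 0.806 CPM (11 counts), against 0 to 3 counts in the other subcutaneous libraries. For normally distributed values chance flags about 1 in 20 such sets, a rate that need not hold for counts this near 0.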

How the results depend on the processing

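Of the 9 genes, between 3 and 6 were past the threshold as higher over the 16 alternative fits (3 to 5 with 1 library left out) and 0 as lower in each. ASPN, FMOD and TNMD passed in all 16, BGN in 6, PRELP in 4, KERA in 2 and DCN, LUM and OGN in 0. DESeq2 called 1369 genes higher and 1171 lower. With 1 library left out, 494 to 1008 genes were higher and 263 to 887 lower, and without intramuscular replicates 1 and 3 306 and 67. Of the partner genes, DESeq2 called 13 lower. With 1 library left out, 10 to 21 partner genes were higher and 2 to 7 lower, and without intramuscular replicates 1 and 3 5 and 1. With the replicate number as a block 9 partner genes were lower, and all 21 partner calls of the unblocked fit were called again. PRELP and KERA passed with that block; the calls of the other 7 genes of the set did not change. The 3 genes most like each member changed by at most 1 with a prior count of 1. The cause of these changes was not tested. TNMD in subcutaneous fat is limited by depth, resting on 14 counts in 5 libraries.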
